A study of Ramazzottius varieornatus and Hypsibius exemplaris with 16 samples.

Results

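Some transcripts of the tardigrade Hypsibius exemplaris had higher relative levels in storage cells than in the whole animal, and the 150 most enriched of them outside runs of neighbouring genes are described here. They were chosen from 20853 targets, each a transcript model of 1 of 19939 genes. A target entered when its coding length was under 9000 bases, its mean level in storage cells was at least 20 CPM (the estimated count divided by the library total and scaled to 1000000), and all 5 storage cell libraries lay above all 3 whole-body libraries. The first pair of limits kept 3578 targets, of which 482 (13.5%) had all 5 storage cell libraries above all 3 whole-body libraries. Of these, 7 targets were dropped because they stood in runs of 3 or more genes with consecutive BV898 numbers that all passed, which left 475. The 150 with the largest log2 ratio of mean levels, with 1 CPM added to each mean, are the members, and they come from 148 genes. The members' levels in storage cells and whole bodies therefore made the choice, and differences between the 2 sample types are given as descriptions.

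Storage cells of strain Z151 were represented by 5 libraries. Animals were cut open in dilute PBS, and the cells that came out were drawn up and lysed straight in SMART-Seq v.4 buffer. They were set against 3 libraries of active whole bodies of the same strain, homogenised and lysed in TRIzol before RNA purification. All animals were fed Chlorella vulgaris at 18 °C, and no transgene, drug or drying treatment is named for either group. The sources used here do not state how many animals or cells went into a library. The way RNA was obtained differed together with the sample type, so the 2 cannot be told apart. The titles call the replicates biological but do not say that they came from separate cultures, so p-values measure the spread between these libraries.

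Storage cells float free in the fluid of the tardigrade body cavity, where they are moved about as the animal moves. They are known for holding reserves of fat, glycogen and protein that are drawn on during starvation and egg production, and for this they are compared with the fat body of insects. A whole-body library contains the RNA of the animal's own storage cells as well as that of muscle, gut, epidermis, nerve and gonad. Fewer cells of a type and less RNA per cell cannot be told apart in such bulk samples. The table of gene names used here covered Ramazzottius varieornatus only, so none of the 20853 targets could match it (0 matches). No names of H. exemplaris genes were at hand, and the members are given by identifier, without products, positions or sequences. The label of the storage cells could not be checked against marker genes for the same reason.

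Library totals were 7680812 to 10343744 estimated counts in storage cells and 5437134 to 5807509 in whole bodies. Rank correlations across targets between storage cell libraries were lowest for pairs with replicate 3, at 0.667 to 0.808, against 0.814 to 0.888 for the other pairs. No 2 libraries held identical values.

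The members together took up a larger share of the storage cell RNA than of the whole-body RNA, as follows from their choice. They held 15.3%, 13.7%, 10.9%, 18.3% and 15.9% of the estimated counts in storage cell replicates 1 to 5, against 0.854%, 0.784% and 0.805% in whole-body replicates 1 to 3. By deposited TPM (which divides counts by effective length and scales them to the same total) the shares were 21.4 ± 4.45% in storage cells (SD, n = 5) and 1.04 ± 0.0494% in whole bodies (SD, n = 3). A single target, BV898_01325.t01, accounted for much of this in some libraries: it held 11.5% of the counts in each of replicates 1 and 4, but 1.10% to 2.41% in the other 3. Without it and BV898_16263.t01, the other member with the highest mean level, the remaining 148 members held 3.72% to 11.8% of the storage cell counts and 0.330% to 0.442% of the whole-body counts. Of the 10 most abundant targets of storage cells by mean TPM, 3 were members, and 70 members were among the first 500. Of the 500 most abundant targets of whole bodies, 8 were members.

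Levels ranged widely among the members. The mean in storage cells ran from 20.03 to 55218 CPM with a median of 188 CPM, and the mean in whole bodies from 0.349 to 3751 CPM with a median of 9.87 CPM. In storage cells 101 members averaged at least 100 CPM and 20 averaged at least 1000 CPM, against 11 and 1 in whole bodies. All 150 had a mean in storage cells at least 10-fold above that in whole bodies, 76 at least 20-fold, 5 at least 50-fold and 1 at least 100-fold. Every member had counts in whole bodies, so none was silent there at this depth. The whole-body levels of 20 members rest on fewer than 30 counts over the 3 libraries, and that of BV898_08792.t01 on 6, so the ratios of these members are imprecise.

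**Figure D1:**
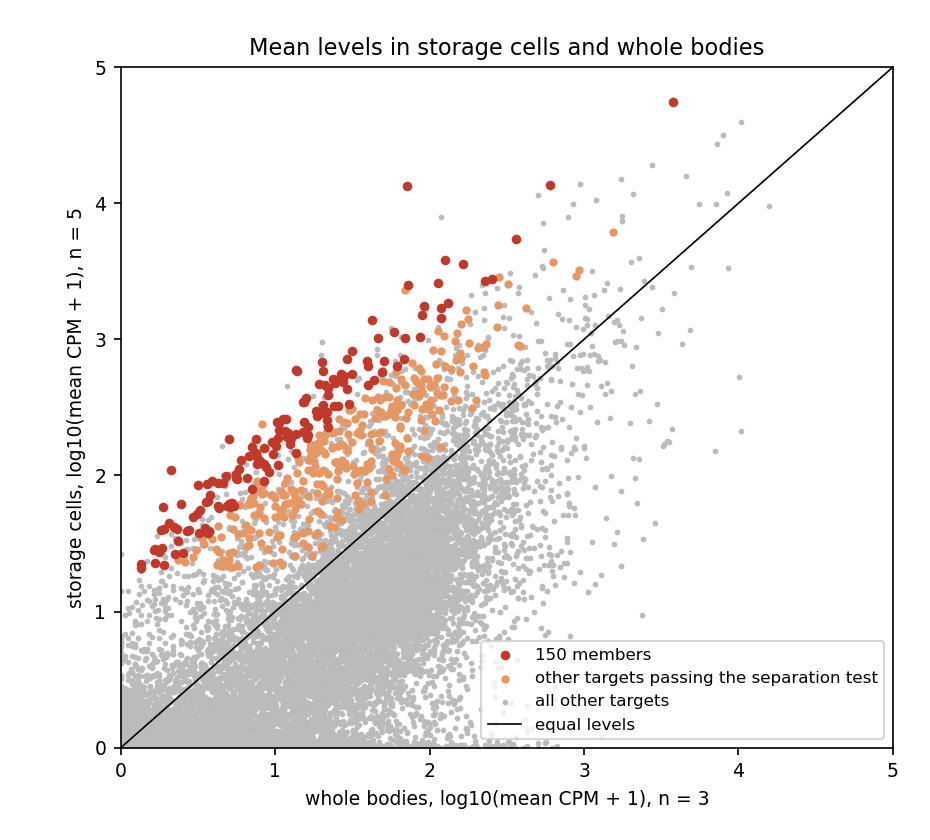
Mean level of each of the 20853 targets in storage cells (vertical axis, n = 5) and in active whole bodies (horizontal axis, n = 3), both as log10(mean CPM + 1), with members in red, the other targets that passed the separation test in orange and all others in grey. The members lie far above the line of equality, at whole-body means of 0.349 to 3751 CPM, as follows from their choice by the ratio, and the other targets extend to lower and higher whole-body levels.

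In the edgeR quasi-likelihood test fitted on all 11764 targets that passed the filter on low counts, 13.2% were called higher in storage cells (adjusted p below 0.05). All 150 members passed that filter and 149 were called higher, which follows from how they were chosen, so nothing is read from it. Their log2 fold changes on TMM-scaled counts ran from 4.84 to 9.16 with a median of 5.86, beside a median of -0.47 over all targets tested. These values are larger than the log2 ratios behind the choice, by 1.67 for the median member. Most of this comes from the TMM factors, which were 0.51 to 0.96 in storage cells and 1.85 to 2.04 in whole bodies. The 1 CPM added to each mean for the choice also lowers the ratios behind it. On library totals alone the median over all targets was -1.88, the median over members was 4.31, and 682 of 5816 calls were higher in storage cells, in place of 1548 of 3814 with TMM factors. The member not called was BV898_01325.t01, with a log2 fold change of 5.63 (SE 2.22) and an adjusted p of 0.0843.

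BV898_18925.t01 (438 bases) stood apart as the most enriched member. It had 12040.4, 12999, 11558, 18160.0 and 12312 CPM in storage cell replicates 1 to 5, against 56.8, 73.6 and 80.01 CPM in whole-body replicates 1 to 3. On this scale the storage cell values lay within 1.57-fold of each other, with replicate 4 the highest, and far above the whole bodies. On TMM-scaled CPM they spread over 2.66-fold and by TPM over 2.56-fold. The ratio of the means was 191, with 13414 ± 2704 CPM (SD, n = 5) in storage cells and 70.2 ± 11.98 CPM (SD, n = 3) in whole bodies. It was also the member with the highest mean TPM.

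The next most enriched member was BV898_10940.t01, one of the shortest at 294 bases. Its levels were 109.8, 124, 143, 10.1 and 152 CPM in storage cells, against 1.89, 1.05 and 0.368 CPM in whole bodies. Storage cell replicate 4 was low, near 10 CPM, while the other 4 lay above 100 CPM, and the groups did not overlap. The whole-body level rests on 19 counts in all.

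After these came both transcripts of the gene BV898_18257, which share reads, so how the counts divide between them is uncertain. BV898_18257.t02 (1191 bases) had 136, 1001, 749.6, 253 and 852 CPM in storage cells, against 15.95, 14.5 and 7.61 CPM in whole bodies. BV898_18257.t01 (1119 bases) had 237, 1149.9, 451, 357 and 729 CPM in storage cells, against 7.98, 18.00 and 12.8 CPM in whole bodies. Both were highest in storage cell replicate 2 and lowest in replicate 1.

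BV898_00496.t01 (1068 bases) had 109, 146, 103, 318 and 239.9 CPM in storage cells, against 2.24, 7.68 and 2.21 CPM in whole bodies. Its highest storage cell value was in replicate 4 and its highest whole-body value in replicate 2. BV898_02263.t01, of the same length (1068 bases), behaved otherwise. It had 224, 3562, 3304, 427 and 4996 CPM in storage cells, against 64.2, 76.4 and 74.1 CPM in whole bodies, so replicates 1 and 4 were far below the other storage cell libraries but still above every whole body.

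BV898_05016.t01 (894 bases) and BV898_07598.t01 (1260 bases) showed a like division of the libraries. The first had 79.5, 962, 784, 217 and 1355 CPM in storage cells, against 14.98, 23.03 and 19.1 CPM in whole bodies. The second had 103, 2105, 2128, 171 and 2411 CPM in storage cells, against 37.5, 54.8 and 31.6 CPM in whole bodies. In both, replicates 1 and 4 were the lowest storage cell libraries and replicate 5 the highest.

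Per length, the leading members after BV898_18925.t01 were BV898_01325.t01 and BV898_16263.t01. BV898_18925.t01 averaged 56107 ± 23564 TPM (SD, n = 5) in storage cells and 310.4 ± 41.7 TPM (SD, n = 3) in whole bodies. BV898_01325.t01 (1263 bases) averaged 43365 ± 48281 TPM (SD, n = 5) in storage cells and 2434 ± 525 TPM (SD, n = 3) in whole bodies. BV898_16263.t01 (507 bases) averaged 35132 ± 27897 TPM (SD, n = 5) in storage cells and 1962 ± 187 TPM (SD, n = 3) in whole bodies. The spread between storage cell replicates was so wide for the last pair that their order relative to each other and to BV898_18925.t01 is not resolved beyond it.

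These 2 abundant targets ran in opposite directions across the storage cell libraries. BV898_01325.t01 had 115438, 24111, 11010.2, 114560.2 and 10968 CPM in replicates 1 to 5, against 4312, 2879 and 4063 CPM in whole bodies. BV898_16263.t01 had 699.9, 15782, 18927, 3372 and 29811 CPM in storage cells, against 593, 537 and 686 CPM in whole bodies. So BV898_01325.t01 was highest in replicates 1 and 4, where BV898_16263.t01 was lowest, and in replicate 1 BV898_16263.t01 was barely above the highest whole body.

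The other 5 members with the highest mean TPM in storage cells were 363 to 894 bases long. BV898_12584.t01 (627 bases) had 349, 6733, 3996, 632 and 6222 CPM in storage cells, against 168, 188 and 133 CPM in whole bodies. BV898_19089.t01 (894 bases) had 656, 8617, 6537, 1878 and 9406 CPM in storage cells, against 351, 415 and 315 CPM in whole bodies. Both had replicates 1 and 4 as their 2 lowest storage cell libraries, and so did BV898_09025.t01 and BV898_12338.t01. BV898_09025.t01 (555 bases) had 158, 2767, 2599, 260.2 and 3529 CPM in storage cells, against 142, 124 and 128 CPM in whole bodies. BV898_12338.t01 (714 bases) had 556, 4268, 3389.6, 1029 and 4577 CPM in storage cells, against 244, 280.4 and 232 CPM in whole bodies. Only BV898_03571.t01 (363 bases) departed from this order among the 5, with 147, 301, 1052, 1058 and 996 CPM in storage cells, against 56.3, 83.2 and 61.2 CPM in whole bodies. It was low in replicates 1 and 2 and high in the other 3.

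**Figure D2:**
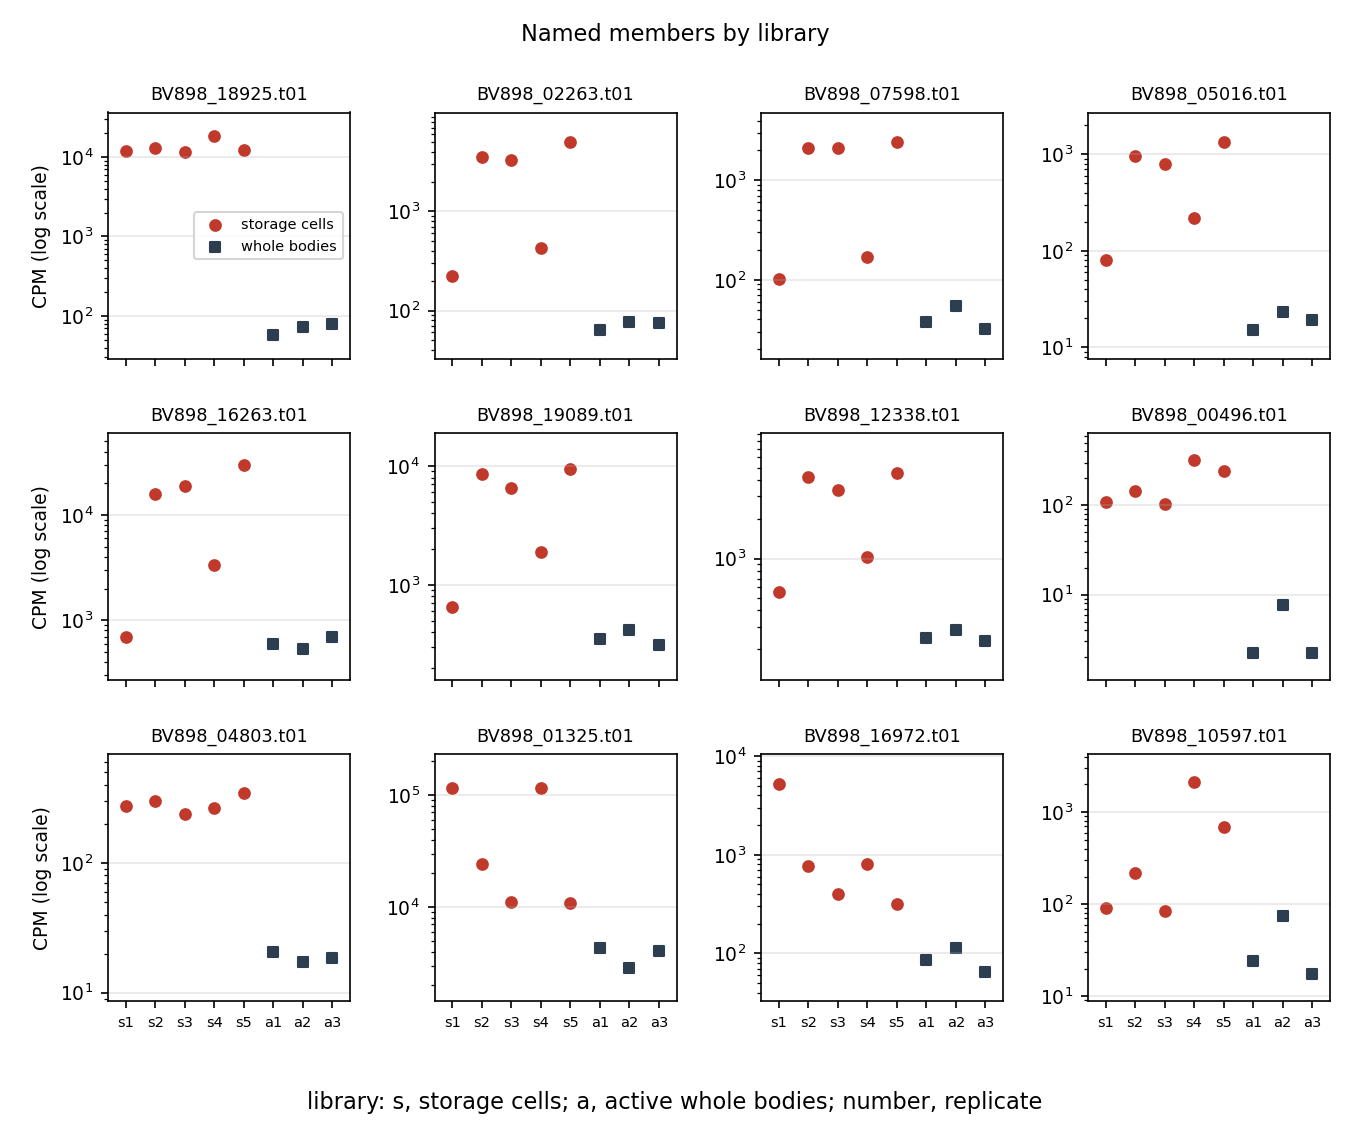
Levels of some of the named members in each library, in CPM on a log axis whose range differs between panels, with storage cell replicates 1 to 5 (s1 to s5, red circles) left of whole-body replicates 1 to 3 (a1 to a3, dark squares). The panels of BV898_02263.t01, BV898_07598.t01, BV898_05016.t01, BV898_16263.t01, BV898_19089.t01 and BV898_12338.t01 have s1 and s4 below s2, s3 and s5, whereas BV898_01325.t01 has s1 and s4 highest and BV898_04803.t01 spans 1.44-fold across the storage cells on this scale.

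The members differed widely in which storage cell library held most of them. In 90 of the 150 members (60%) replicates 1 and 4 were the 2 lowest storage cell libraries, in 14 (9.33%) they were the 2 highest, and 46 followed neither order. Among the 3428 other targets of at least 20 CPM in storage cells and under 9000 bases, the shares were 40.9% and 8.84%. Among the 150 targets ranked 151 to 300 by the same rule they were 29.3% and 22%. Replicate 5 gave the highest value for 71 members (47.3%), against 36.7% of the targets ranked 151 to 300 and 15.5% of the other targets. Replicate 1 gave the lowest for 101 (67.3%), against 40.7% of the targets ranked 151 to 300 and 30.8% of the other targets. Targets are not independent of each other within a library, so these shares carry no test.

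The order depends in part on scaling. Replicates 1 and 4 had the smallest TMM factors, so that scaling raises them relative to the other 3 in every target. On TMM-scaled CPM replicates 1 and 4 were the 2 lowest for 63 members (42%) and the 2 highest for 16 (10.7%), against 27.7% and 19% of the other targets. By deposited TPM they were the 2 lowest for 71 members (47.3%) and the 2 highest for 18 (12%), against 28.9% and 17.3% of the other targets. Replicate 1 was the lowest library for 96 members (64%) on TMM-scaled CPM, against 26.3% of the other targets, and for 98 (65.3%) by TPM, against 27.5%. Replicate 5 was the highest for 96 members (64%) on TMM-scaled CPM, against 1030 of the 3428 other targets, and for 52 (34.7%) by TPM, against 10.3%. On TMM-scaled CPM these were also the most frequent lowest and highest libraries among the other targets, at lower shares. By TPM, 146 members had all 5 storage cell values above the 3 whole bodies, as did 146 of the targets ranked 151 to 300. Among the 3428 other targets it was 302 by TPM and 1260 on TMM-scaled CPM. Members and targets ranked 151 to 300 were chosen for this separation on CPM, so nothing is read from the contrast.

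**Figure D3:**
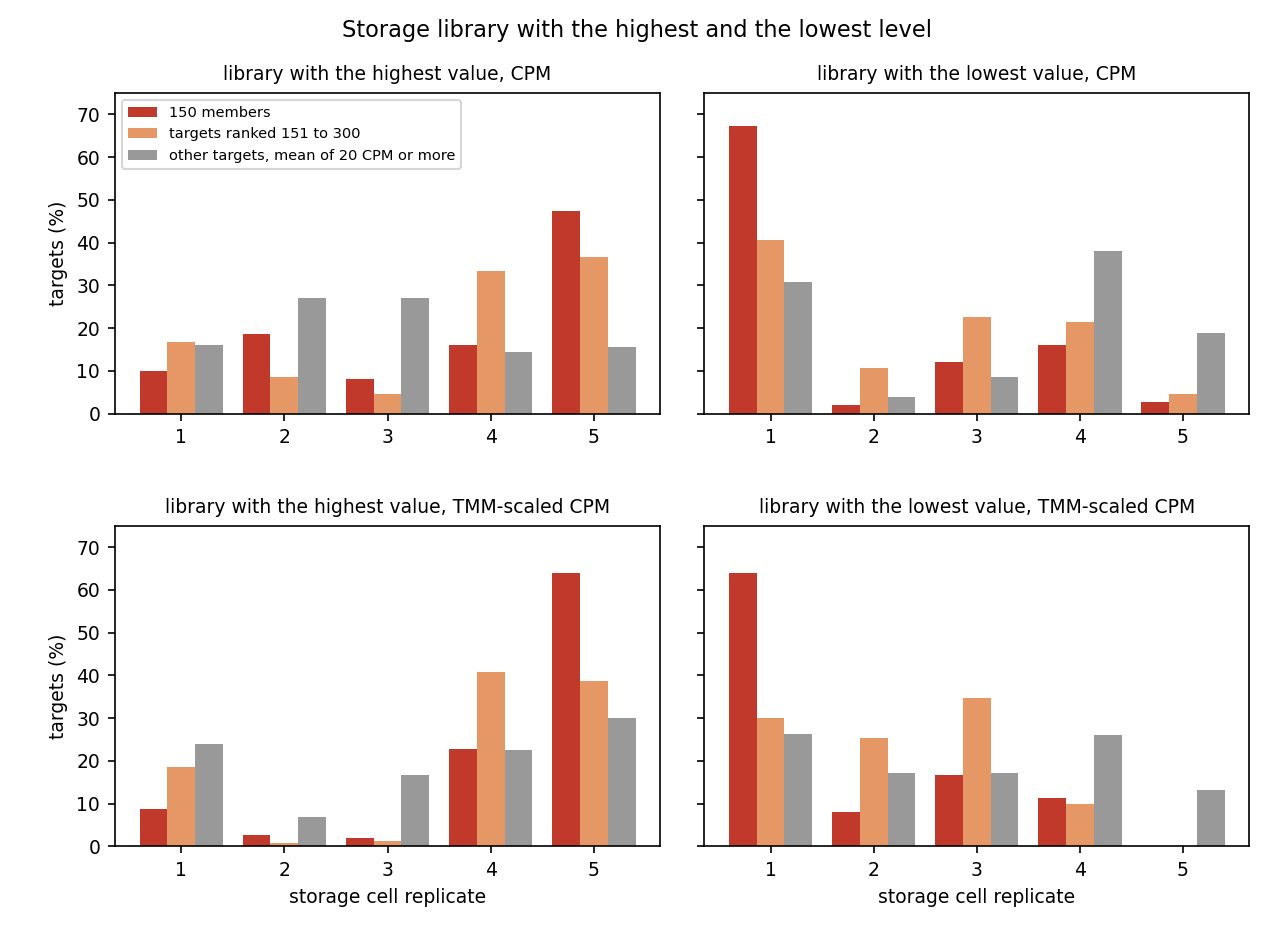
Share of targets, in percent, whose highest (left) and lowest (right) storage cell value lay in replicate 1, 2, 3, 4 or 5, on CPM (upper row) and TMM-scaled CPM (lower row), for the 150 members (red), the targets ranked 151 to 300 (orange) and the 3428 other targets of at least 20 CPM (grey). Replicate 5 is the highest library for 47.3% of the members on CPM, and replicate 1 the lowest for 67.3%.

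The distance to the whole bodies on CPM varied accordingly from library to library. In storage cell replicate 1, 53 members were less than 2-fold above their highest whole-body value, against 13 in replicate 4, 4 in replicate 3 and 0 in replicates 2 and 5. In replicate 5, 138 members were at least 10-fold above it, against 126 in replicate 2, 111 in replicate 3, 66 in replicate 4 and 32 in replicate 1. The median member was 29.9-fold above its whole-body mean in replicate 5 and 4.28-fold above it in replicate 1. For the median member the lowest storage cell library was 2.60-fold above the highest whole body. TMM factors were 0.556 and 0.506 in storage cell replicates 1 and 4, the smallest, and 1.85 to 2.04 in whole bodies. TMM scaling would thus widen all these distances, and most in replicates 1 and 4, so differences between libraries here depend on the scale.

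**Figure D4:**
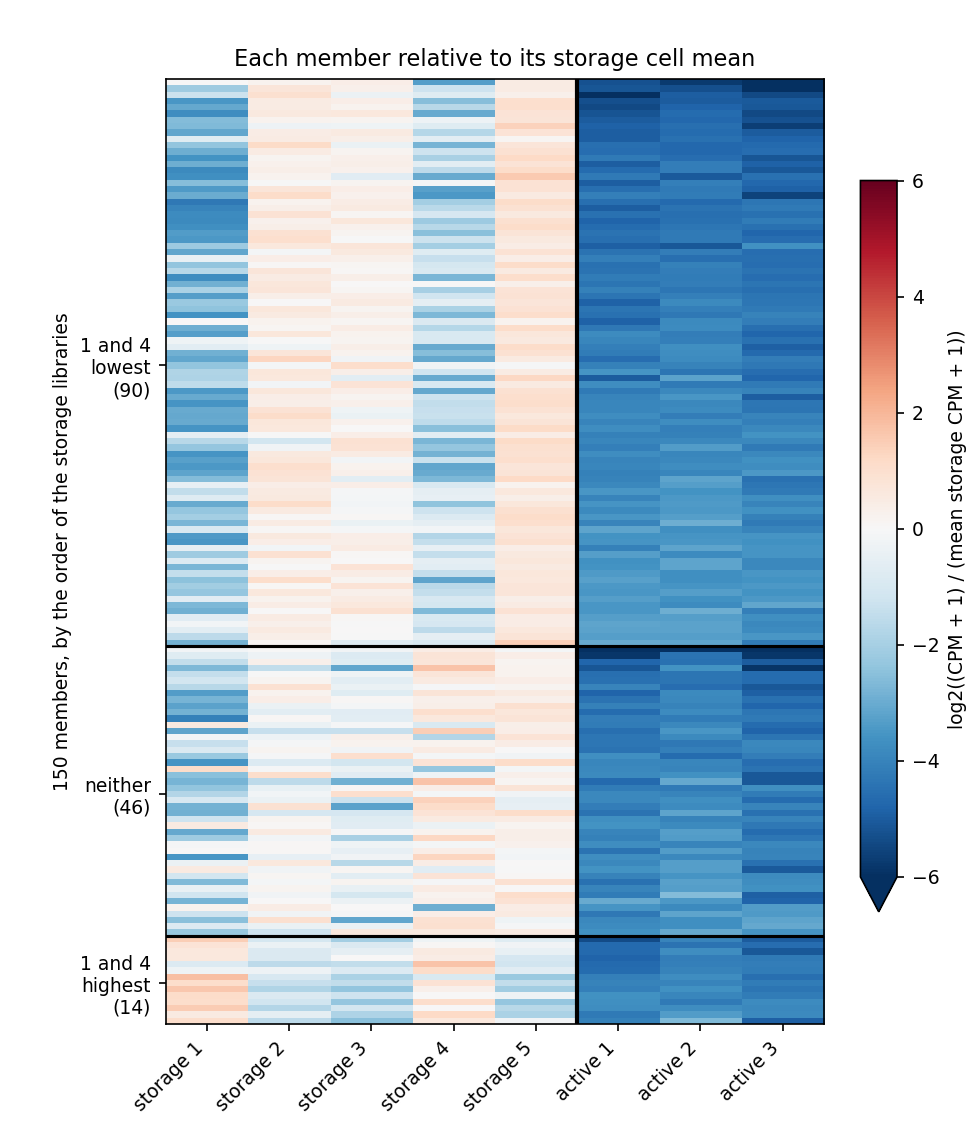
Each row is 1 of the 150 members and each column 1 library (storage cell replicates 1 to 5, then whole-body replicates 1 to 3), coloured by log2((CPM + 1)/(mean storage CPM + 1)), with red above and blue below the member's storage cell mean and the darkest blue also standing for lower values. Rows are grouped by whether storage cell replicates 1 and 4 were the 2 lowest (90 members), neither (46) or the 2 highest (14), and every row is blue in the whole bodies.

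The 14 members highest in replicates 1 and 4 on CPM had a median coding length of 780.0 bases, and their mean levels ran from 61.0 to 55218 CPM. BV898_16972.t01 (1956 bases) had 5218, 776, 401, 807 and 320.2 CPM in storage cells, against 86.3, 114 and 65.5 CPM in whole bodies, and so was carried mostly by replicate 1. It had the highest coefficient of variation over the storage cells of any member on CPM, 1.39. The other 2 most variable members on CPM, BV898_10597.t01 and BV898_00104.t01, were instead highest in replicate 4. BV898_10597.t01 (1341 bases) had 90.5, 218, 84.97, 2122 and 686 CPM in storage cells, against 23.9, 74.2 and 17.7 CPM in whole bodies. BV898_00104.t01 (1266 bases) had 39.6, 92.2, 29.4, 844 and 297 CPM in storage cells, against 6.37, 20.8 and 3.49 CPM in whole bodies. For both, replicate 2 was the highest whole body and stood well above the other 2.

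Whole-body replicate 2 was the highest whole body for 94 of the 150 members (62.7%), for 93 of the targets ranked 151 to 300 (62%) and for 51.8% of the other targets of at least 20 CPM, so this order is shared with the other targets. By the storage cell library in which a member peaked, the share was 73.3%, 57.1%, 41.7%, 79.2% and 60.6% for replicates 1 to 5. Among the other targets it was 57.7%, 50.7%, 38.1%, 63% and 60.8%. These groups held 15, 28, 12, 24 and 71 members, against 549, 929, 924, 495 and 531 other targets. The shares of members are therefore imprecise. The median coefficient of variation over the 3 whole bodies was 0.27 for members and 0.13 for those other targets, and the median whole-body level was 9.87 CPM for members and 80.5 CPM for the others.

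How steady a member was across the storage cells depended on the scale. BV898_04803.t01 (1731 bases) had the lowest coefficient of variation of all members on CPM, 0.14, but 0.295 on TMM-scaled CPM and 0.213 by TPM. Its levels were 275, 302, 239, 264 and 344 CPM in storage cells, against 20.6, 17.1 and 18.4 CPM in whole bodies, although some of its reads were shared with another target. BV898_18925.t01 had a coefficient of 0.20 on CPM, 0.438 on TMM-scaled CPM and 0.420 by TPM. BV898_08491.t01 (579 bases) had one of 0.23 on CPM, 0.453 on TMM-scaled CPM and 0.440 by TPM. These scales were compared after the data had been seen. BV898_08491.t01 had 39.4, 40.7, 27.1, 51.9 and 35.5 CPM in storage cells, against 0.861, 2.97 and 1.47 CPM in whole bodies. The median coefficient over the storage cells on CPM was 0.71 for members, 0.57 for targets ranked 151 to 300 and 0.595 for the other targets of at least 20 CPM. It was 0.77, 0.64 and 0.58 on TMM-scaled CPM and 0.67, 0.57 and 0.58 by TPM. The highest storage cell value was more than 10-fold the lowest for 86 members (57.3%), for 10.7% of targets ranked 151 to 300 and, counting targets with a 0, for 32.3% of those other targets. Over all targets tested, whose median storage cell mean was 7.98 CPM, that share was 54.9% and the median coefficient on CPM was 0.788. Of all targets tested, 4121 had a 0 in a storage cell library and were counted in that share, against 0 of the members. The members are therefore not directly comparable with that set. Beside the targets of at least 20 CPM, a spread of more than 10-fold on CPM was more frequent among members, though not confined to them.

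To see how far the choice carries over to a library that took no part in it, each storage cell library was left out in turn and the rule applied to the other 4 and the 3 whole bodies. Of the 150 targets chosen without replicate 2, all 150 lay above the 3 whole bodies in replicate 2, where 38.8% of all targets of at least 20 CPM in the other storage cells did. Without replicate 3 it was again 150, against a background of 40.4%, and without replicate 5 it was 149, against 33.4%. In replicate 4, 145 of the 150 targets chosen without it lay above, against 25.9%. In replicate 1 the number was 112, against 23.1%, so the choice carried over to replicate 1 less often than to the other 4. The whole bodies were shared by choice and check, so no test is given.

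The left-out libraries also differed in size, with replicate 1 again the lowest. The median log2 ratio of the left-out library to the whole-body mean, with 1 CPM added, was 4.53 for replicate 5, 4.12 for replicate 2, 3.90 for replicate 3, 2.86 for replicate 4 and 1.08 for replicate 1. Over the background targets it was -0.74, -0.30, -0.28, -1.37 and -1.12. These ratios are on CPM alone, and TMM scaling, which raises replicates 1 and 4 most, was not applied to them. When a value above 2 times the highest whole body was required, 149, 150, 145, 130 and 69 of the chosen targets met it in replicates 5, 2, 3, 4 and 1. The sets chosen without a storage cell library shared 111 to 139 targets with the members, the fewest without replicate 1.

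Members tended to be short. Their coding lengths, which hold no untranslated regions, ran from 264 to 4140 bases with a median of 955.5 (quartiles 574.5 and 1360.5; 95% binomial interval of the median 807 to 1119). The interval treats members as independent draws, whereas they are the whole chosen set, so it is no test against other targets. The median was 1116 bases for targets ranked 151 to 300, 1281 for the other targets of at least 20 CPM under 9000 bases and 1269 for all targets tested. Targets under 600 bases made up 26.7% of the members (40 of 150), 22.7% of the targets ranked 151 to 300 and 377 of the 3428 other targets. Members chosen by deposited TPM had a median of 747.0 bases. The preparation of the 2 sample types differed, and its part in the lengths was not tested.

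The shortest members were BV898_12865.t01 (264 bases), BV898_10284.t01 (276 bases) and BV898_10940.t01. BV898_10284.t01 had 21.1, 42.04, 37.8, 35.9 and 64.97 CPM in storage cells, against 3.62, 2.27 and 1.66 CPM in whole bodies. The longest was BV898_16724.t01 (4140 bases), with 15.3, 197, 58.02, 78.00 and 117 CPM in storage cells, against 5.59, 6.55 and 1.76 CPM in whole bodies. It was followed by BV898_07022.t01 (2811 bases) and BV898_06458.t01 (2748 bases). BV898_07022.t01 had 174, 3133, 1302, 271 and 2335 CPM in storage cells, against 122, 137 and 92.7 CPM in whole bodies. BV898_06458.t01 had 2.21, 52.00, 70.5, 8.91 and 86.03 CPM in storage cells, against 0.614, 1.05 and 1.47 CPM in whole bodies. The 3 longest members and BV898_10284.t01 had their lowest storage cell value in replicate 1, whereas BV898_12865.t01 and BV898_10940.t01 had it in replicate 4.

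Identifiers that follow each other name neighbouring gene models in the authors' numbering. Although the rule dropped runs of 3 or more, 24 members had a gene with the next number above or below that passed the same test. Among these 24 were both members of 4 adjacent pairs. The rule limits these counts, and no like count was made for other targets, so nothing is read from them. Among 195 tested targets, other than members, whose number was 1 away from that of a member, 59 (30.3%) were called higher in storage cells, against 12.0% of all tested targets that are not members (edgeR quasi-likelihood test, adjusted p below 0.05). Of the same 195, 41 (21.0%) were called lower, against 19.5%. The median log2 fold change of these neighbours was 0.51, against -0.51 for all tested targets that are not members. At a distance of 2 numbers the share called higher was 16.8%, and at 3 to 10 numbers it was 11.5% to 18.6%.

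The neighbours of less enriched targets gave a similar value. Next to targets ranked 151 to 300, 59 of 198 (29.8%) were called higher, whereas next to the other targets of at least 20 CPM it was 646 of 4468 (14.5%). The share next to members was thus close to that next to the targets below them in rank. Whether neighbouring models overlap, share reads or belong to 1 transcript was not tested. Within 10 numbers of each other, 34 of the 148 member genes (23.0%) had another member gene, against 51 of 148 genes (34.5%) among the targets ranked 151 to 300.

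**Figure D5:**
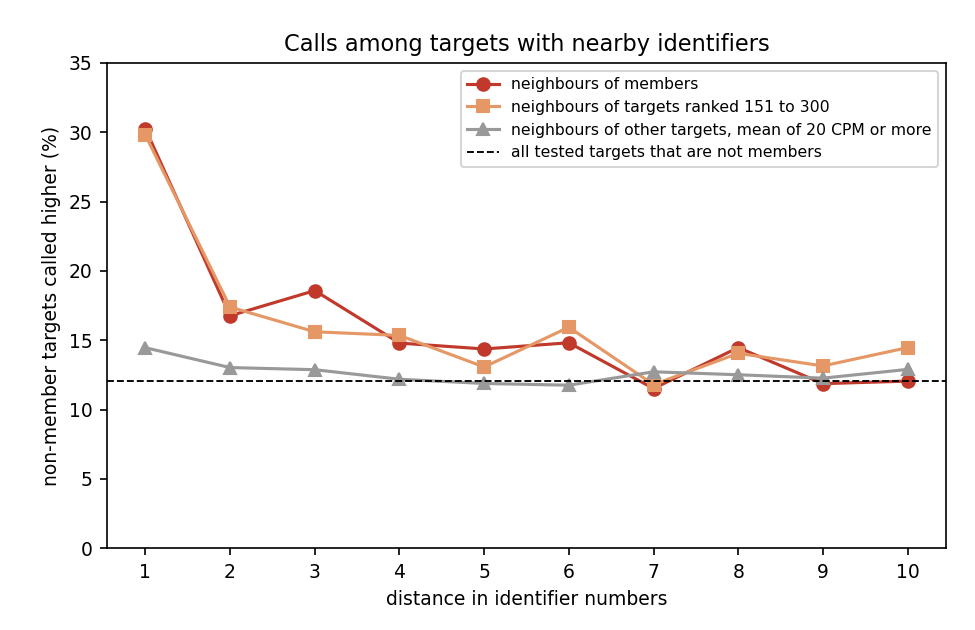
Share of tested targets, other than members, called higher in storage cells (vertical axis, percent) by their distance in identifier numbers (horizontal axis, 1 to 10) from a member (red circles), a target ranked 151 to 300 (orange squares) or another target of at least 20 CPM (grey triangles), with the share over all tested targets that are not members as a dashed line at 12.0%. The share is 30.3% next to members and 29.8% next to the targets ranked below them, and it is lower at a distance of 2.

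The 4 adjacent pairs of members can be set side by side. BV898_19289.t01 had 18.5, 417, 242, 23.1 and 345 CPM in storage cells, against 12.7, 14.8 and 14.7 CPM in whole bodies. BV898_19290.t01 had 46.1, 1017, 509.8, 208 and 778 CPM in storage cells, against 21.01, 26.3 and 20.8 CPM in whole bodies. Both were highest in replicate 2 and lowest in replicate 1. BV898_01738.t01 had 11.1, 86.98, 55.8, 24.3 and 115 CPM in storage cells, against 3.27, 4.54 and 3.86 CPM in whole bodies. BV898_01739.t01 had 38.4, 239, 157, 36.00 and 258 CPM in storage cells, against 7.75, 6.28 and 5.33 CPM in whole bodies. Here replicate 5 was the highest for both, and the lowest was replicate 1 for the first and replicate 4 for the second.

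BV898_19642.t01 and BV898_19643.t01 were both highest in replicate 3, unlike most members. BV898_19642.t01 had 9.89, 50.4, 115, 46.9 and 53.1 CPM in storage cells, against 2.41, 2.44 and 1.84 CPM in whole bodies. BV898_19643.t01, whose reads were partly shared with another transcript of its gene, had 7.69, 25.3, 58.5, 25.98 and 24.2 CPM in storage cells, against 1.03, 0.868 and 0.603 CPM in whole bodies. The last pair was less alike in replicate 4. There BV898_12865.t01 had its lowest value, with 64.2, 115, 107, 32.8 and 115 CPM in storage cells, against 4.13, 2.79 and 2.76 CPM in whole bodies. BV898_12866.t01 had 10.3, 139, 88.8, 111 and 122 CPM in storage cells, against 5.17, 8.55 and 2.94 CPM in whole bodies, and was low in replicate 1 alone.

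Most members were the single transcript of their gene. Genes with more than 1 target supplied 7 members (4.67%), against 5.83% of the other targets of at least 20 CPM. Counts further than 1e-06 from a whole number in any library, as arise where reads are assigned to more than 1 target, were found for 39 members (26%), for the same number of targets ranked 151 to 300 and for 14.9% of those other targets, so the levels of these 39 are less certain. The gene BV898_03189, chosen after its values were seen, had transcripts that differed. BV898_03189.t02, a member, averaged 105 ± 35.9 CPM in storage cells (SD, n = 5) and 8.16 ± 2.74 CPM in whole bodies (SD, n = 3). BV898_03189.t01, which is no member, averaged 27.2 ± 9.36 CPM in storage cells (SD, n = 5) and 38.9 ± 5.59 CPM in whole bodies (SD, n = 3). The division of reads between the 2 is an estimate.

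The members were unevenly spread over the numbering. BV898 numbers above 16000 made up 22.7% of the members, 16% of the targets ranked 151 to 300, 11.1% of the other targets of at least 20 CPM and 15.0% of all targets tested. Numbers from 4001 to 8000 made up 14% of the members and 24.4% of those other targets. The relation of the numbers to the genome was not used here.

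At the limit of the choice, the last members were BV898_03088.t01 and BV898_10819.t01, with log2 ratios of 3.37 each. BV898_03088.t01 had 216, 806, 631, 441 and 1080.2 CPM in storage cells, against 63.02, 62.99 and 55.2 CPM in whole bodies. BV898_10819.t01 had 4.35, 38.6, 21.4, 18.4 and 103 CPM in storage cells, against 3.62, 3.32 and 1.10 CPM in whole bodies. The first targets outside were BV898_02190.t01, with a log2 ratio of 3.37, and BV898_06592.t01, with 3.36. BV898_02190.t01 had 7872, 1374, 741, 3432 and 1013 CPM in storage cells, against 247, 341 and 248 CPM in whole bodies. BV898_06592.t01 had 8.85, 29.7, 29.1, 8.42 and 39.5 CPM in storage cells, against 1.55, 1.22 and 1.29 CPM in whole bodies. The log2 ratios on both sides of the limit are alike, so the limit at 150 marks no gap, although BV898_02190.t01 was highest in replicates 1 and 4 and the other 3 targets were not.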

How the data were processed

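RNA of 5 storage cell and 3 active whole-body libraries of H. exemplaris was amplified with SMART-Seq v.4 and made into libraries with KAPA HyperPlus, per the labels' protocols. The authors deposited 1 table per library, with replicates not pooled. Per the file headers, it gives estimated counts, which need not be whole and are not normalized, TPM values, which the authors divided by effective length and scaled to 1 total, and the length of each target. Kallisto 0.46.1 and bcl2fastq 2 are named in the submitters' processing notes. The sources used here do not name read filters, transcript set or genome build. Lengths were divisible by 3 in 99.2% of targets and are called coding lengths. Every row names a target. R. varieornatus libraries were not used.

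CPM is the estimated count divided by the column sum. Counts were rounded and fitted with edgeR 4.0.16 (R 4.3.3; filterByExpr, TMM, quasi-likelihood test, no covariate, two-sided, Benjamini-Hochberg adjustment over 11764 targets), after a test on simulated data. Alternatives used limma 3.58.1, DESeq2 1.42.0 and Python 3.11.15 with numpy 2.4.6, scipy 1.17.1 and pandas 2.3.3. A gene passed when any of its targets passed. Standard errors come from log2 fold changes over the root of the F statistic. Named members were the 8 with the largest ratio, the 8 with the highest TPM, the 3 longest and 3 shortest, the 3 steadiest and 3 most variable on CPM, adjacent pairs and those at the limit; those without whole-body counts were to be named too, and there were 0. The members and lists were chosen with earlier results of these data known.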

Additional observations from a re-analysis of the deposited data

Results flagged for a closer look

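In 35 screened groups of 5 storage cell libraries (34 named members and the members' share of counts), 2 had a library far from the other 4, where chance picks out roughly 1 group in 20. That number is near the chance share, so nothing is read from it. The groups also share the same 5 libraries, and BV898_16972.t01 was named because its spread on CPM was the highest. BV898_16972.t01 had 5218 CPM in storage cell replicate 1, against 320 to 807 CPM in the other 4, a gap of 0.90 of the whole range. BV898_18925.t01 had 18160.0 CPM in storage cell replicate 4, against 11558 to 12999 CPM in the other 4, a gap of 0.78 of the range.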

How the results depend on the processing

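Of the 150 members, 110 to 150 were chosen again under the 10 other scalings, minimums, pseudocounts and run or length limits tried and 111 to 141 when any library was left out, with the fewest under a pseudocount of 10 and, among libraries, without storage cell replicate 1. Targets called higher numbered 1548 with all libraries, 682 on library totals alone and 650 to 2003 with a library left out, the low values coming without whole-body replicate 1 (650), 2 (739) or 3 (725). Members called higher numbered 124 to 149 with a library left out and 149 or 150 under the other tools and scalings. With the replicate number as a block, 63 members and 187 targets were called. Storage cell replicates 4 and 5 have no whole body of the same number, so they add nothing to the contrast in that fit. Same-numbered libraries had correlations of deviations of 0.04, -0.05 and 0.08, none over 0.1. Storage cell replicates 1 and 3 correlated best with the whole body of the same number, and replicate 2 with whole-body replicate 1. Values this low over so few pairs cannot settle whether same-numbered libraries belong together. The members' share of counts was 14.0 percentage points above the whole bodies, 20.4 by TPM, 7.55 without the pair of members with the most counts (an alternative chosen after seeing the data) and 13.1 to 15.0 with a library left out. The median length was 955.5 bases, 747.0 for members chosen by TPM and 909.0 to 999.0 with a library left out. Replicate 1, left out of the choice, gave 69 of 150 targets above 2 times the highest whole body, in place of 112 above it. For the 34 named members, no log2 fold change reversed in 510 alternative values, of which 44 no longer passed the threshold, 20 of them under the block and the other 24 without a whole-body library. Low counts in whole bodies limit the ratios of the rarest members.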
